A study of Rattus norvegicus with 30 samples.

Results

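The AMP-activated protein kinase (AMPK) subunits were followed in rat heart after a single dose of isoproterenol, an agonist of beta-adrenergic receptors. The members are 6 genes, Prkaa1, Prkaa2, Prkab1, Prkab2, Prkag1 and Prkag2, taken as every probe set whose gene symbol in the array annotation is one of these names. They are measured by 12 of the 31099 probe sets in the deposited table, and 11 of the 12 were among the 24292 bright enough to be tested. The family, and Prkaa2 within it, was selected on the log2 changes between isoproterenol and vehicle in these same arrays. Each member's difference between isoproterenol and vehicle is therefore a description with no test. Where a member is said to be past the threshold or not, that only records the fit, and nothing is read from it.

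AMPK is a trimer of a catalytic alpha, a scaffolding beta and a nucleotide-binding gamma subunit, and it is switched on when AMP and ADP rise relative to ATP. The alpha subunit (Prkaa1 or Prkaa2) holds the kinase domain and is activated by phosphorylation, mainly by the LKB1 complex or by CaMKK2. The beta subunit (Prkab1 or Prkab2) ties the complex together and has a carbohydrate-binding module that binds glycogen, and the gamma subunit (Prkag1 or Prkag2) senses adenine nucleotides. In heart muscle the kinase promotes glucose uptake and fatty acid oxidation and restrains lipid and protein synthesis, alpha2 being its main catalytic form in cardiomyocytes. Messenger RNA levels say nothing about the phosphorylation that sets its activity.

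RNA came from the hearts of male rats of the Wistar Han stock, which the labels write Crl:Wi(Han). Isoproterenol was given at a labelled dose of 0.5, with the unit mg/kg/ml, and vehicle at a dose of 0. Tissue was taken 1, 3, 24 and 72 h later, from 3 vehicle samples at each time and from 5, 4, 4 and 5 isoproterenol samples. Each of the 30 arrays is titled a biological replicate, but no source used here says that each had a separate animal, so p-values measure the spread between these arrays only, and that spread may be partly technical. The series' design text names 48 h where the labels name 72 h, and the labels were followed. No group carries a transgene or other allele in the labels. The array names in the labels carry running numbers that lie in separate ranges for vehicle and isoproterenol, so whatever that order stands for cannot be told apart from the drug.

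The deposited intensity had an array median between 21.2 and 70.4, so the values were taken as log2(intensity + 16) and quantile normalized. All levels below are on that normalized log2 scale unless an intensity is named, and ± is the standard error of a log2 change unless SD is written. The mean of 7 cardiomyocyte markers was 12.58 to 13.04 in every array, so the labelled tissue showed its defining transcripts, and 2 of the 7 fell at 24 h and 1 at 72 h. The mean of 8 monocyte and macrophage markers lay between 6.35 and 6.93 in vehicle arrays, between 7.51 and 8.64 in isoproterenol arrays at 24 h, and between 7.33 and 8.83 at 72 h, with 6 of the 8 called higher at 24 h and 7 at 72 h. Of 6 fibroblast markers, 1 rose at 24 h and 5 at 72 h, when their mean was 11.14 to 12.69 with isoproterenol and 10.07 to 10.91 with vehicle. In these bulk samples, fewer cells of a type and less RNA per cell cannot be told apart.

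The background of calls was as follows, with a call meaning a limma adjusted p under 0.05 over all probe sets tested. At 1 h, 0.815% of probe sets were lower and 1.83% higher with isoproterenol. At 3 h the shares were 5.28% lower and 6.11% higher, and at 24 h they were 5.7% lower and 7.33% higher. At 72 h, 8.56% were lower (2079 probe sets) and 9.37% higher (2275). With array medians centred in place of quantile normalization, the split at 72 h was 709 lower and 2353 higher, at 24 h 780 lower and 1668 higher against 1384 and 1781, and at 3 h 628 lower and 1290 higher against 1282 and 1484. Without normalization nearly all lower calls were gone, with 17 lower and 3078 higher at 24 h and 29 lower and 2351 higher at 72 h. The share of all probe sets whose isoproterenol and vehicle arrays did not overlap at a time is not given here. A lack of overlap in a member is therefore a description, and nothing is read from it.

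Prkaa2 and Prkag1, the subunits that were furthest below vehicle at 72 h, lie on different chromosomes, and their promoters are printed here so that the sequence around each start can be compared. Positions and sequences are those of RefSeq on GRCr8, an assembly that the deposited table does not name. Prkaa2 spans chr5:125036945-125109010 and Prkag1 spans chr7:131842058-131859484. Each sequence runs 5′ to 3′ over 300 bases on the minus strand, with the 250 bases before the annotated start in lower case and the 50 bases from the start on in capitals. The windows are chr5:125108275-125108574 for Prkaa2 and chr7:131859435-131859734 for Prkag1. The Prkag1 window runs past the end of its gene span at 131859484. The Prkaa2 window lies wholly inside its gene span, which ends at 125109010, so the start used for Prkaa2 is not that end.
Prkaa2: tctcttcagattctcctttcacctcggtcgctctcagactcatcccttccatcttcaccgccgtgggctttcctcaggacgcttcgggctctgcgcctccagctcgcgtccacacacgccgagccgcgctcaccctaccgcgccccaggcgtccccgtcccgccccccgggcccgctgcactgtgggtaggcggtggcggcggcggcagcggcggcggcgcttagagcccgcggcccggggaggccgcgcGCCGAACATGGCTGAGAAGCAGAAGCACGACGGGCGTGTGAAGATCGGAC
Prkag1: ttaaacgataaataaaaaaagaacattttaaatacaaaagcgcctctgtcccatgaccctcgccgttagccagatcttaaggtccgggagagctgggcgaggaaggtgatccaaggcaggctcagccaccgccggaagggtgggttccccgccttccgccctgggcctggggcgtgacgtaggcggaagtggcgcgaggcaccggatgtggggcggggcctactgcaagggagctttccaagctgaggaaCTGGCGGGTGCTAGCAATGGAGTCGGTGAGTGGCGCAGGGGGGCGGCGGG

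G and C made up 70.7% of the Prkaa2 window and 61.3% of the Prkag1 window, against a median of 51.7% over all 33469 promoters in the table. Promoters were matched for all 6 members, and their windows held 61.3% to 81.3% G and C. A set of 3 motifs was searched on both strands: the cAMP response element TGACGTCA, the AP-1 element TGANTCA and the E-box CACGTG. None of the 3 was in any member's window, while 1.83%, 7.33% and 6.42% of all promoters held them. That says only that these letters are not in these windows.

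Prkaa2, which encodes the alpha2 catalytic subunit, was the member with the largest difference between isoproterenol and vehicle. At 72 h its level was 11.33, 10.68 and 11.44 in the vehicle arrays. It was 9.49, 9.55, 8.60, 9.56 and 8.87 in the isoproterenol arrays, so every isoproterenol array lay below every vehicle array. The deposited intensity was 2667, 1056 and 1709 with vehicle and 949.0, 404.4, 487.8, 694.4 and 667.6 with isoproterenol, and these ranges did not overlap either. The log2 change was -1.93 ± 0.34, which leaves 26.2% of the vehicle level.

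At the earlier times the Prkaa2 groups overlapped. At 1 h it was 10.57, 9.87 and 10.38 with vehicle and 10.03, 10.14, 10.37, 9.69 and 9.39 with isoproterenol, a change of -0.35 ± 0.34. At 3 h it was 10.45, 11.58 and 10.50 with vehicle and 10.48, 9.75, 10.27 and 9.63 with isoproterenol, a change of -0.81 ± 0.35. Vehicle replicate 2 was well above the other vehicle arrays, and without it the change was -0.44. At 24 h it was 9.20, 10.19 and 9.11 with vehicle and 8.39, 8.87, 10.35 and 8.98 with isoproterenol, a change of -0.36 ± 0.35. Isoproterenol replicate 3 was the highest of all arrays at 24 h, and it also had the lowest macrophage marker mean of its group, 7.51. Without it the change was -0.76, and without vehicle replicate 2 it was -0.01.

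**Figure D1:**
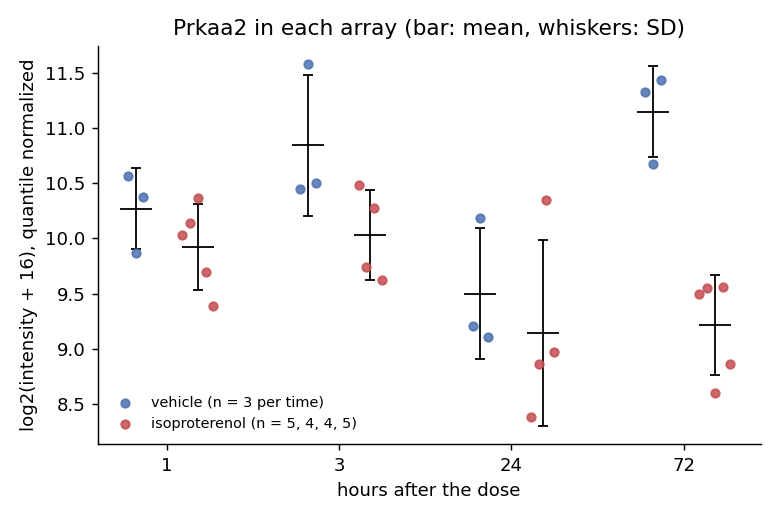
Prkaa2 level in each of the 30 arrays by time in hours, as quantile normalized log2(intensity + 16), with vehicle in blue and isoproterenol in red. Black bars are group means with SD. The 72 h groups are apart, with vehicle at 10.68 to 11.44 and isoproterenol at 8.60 to 9.56, while the groups at 1, 3 and 24 h overlap.

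The level of Prkaa2 also ranged widely among the vehicle groups. In rising order the group means were 9.14 for isoproterenol at 24 h, 9.22 for isoproterenol at 72 h, 9.50 for vehicle at 24 h, 9.92 for isoproterenol at 1 h, 10.03 for isoproterenol at 3 h, 10.27 for vehicle at 1 h, 10.84 for vehicle at 3 h and 11.15 for vehicle at 72 h. The standard deviation between arrays of a group was 0.46, and of the 7 steps between neighbours in this order only the step of 0.57 from vehicle at 1 h to vehicle at 3 h exceeded it. The 4 vehicle means spanned 1.65, the 4 isoproterenol means 0.89. The same vehicle arrays enter the changes on which Prkaa2 was selected, so these vehicle levels too are a description with no test.

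The difference at 72 h thus stands beside the highest vehicle level of the 4 times. Set against the mean of all 4 vehicle groups, Prkaa2 was lower by a log2 change of -1.22 at 72 h and of -1.30 at 24 h. At 72 h, 3 isoproterenol arrays (9.49, 9.55 and 9.56) lay above the pair of low vehicle arrays at 24 h (9.11 and 9.20). Leaving out any 1 array at 72 h gave changes between -2.17 and -1.78, and values taken without normalization gave -1.44, where the median over all probe sets was 0.36.

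The highest Prkaa2 values were in arrays with small values of an RNA integrity measure, though not every such array was high. The log2 difference between the 3' and 5' beta-actin control probe sets, which grows as RNA is degraded, was 0.97, 1.98 and 1.08 in the vehicle arrays at 72 h, so the pair with the highest Prkaa2 had the smallest difference. The vehicle array with the highest Prkaa2 of all, 11.58 at 3 h, had a difference of 0.84. Vehicle replicate 1 at 3 h, with a difference of 1.03, had the lowest Prkaa2 of its group, 10.45. Isoproterenol replicate 3 at 72 h, with a difference of 1.12, also had the lowest of its group, 8.60. The isoproterenol arrays at 24 h, with low Prkaa2 in 3 of 4, had small differences too, 0.88 to 1.34. At 72 h the group means of this difference were 1.35 with vehicle and 1.35 with isoproterenol, so using it as a covariate could not move the change there. Vehicle replicate 2 at 72 h, with a difference of 1.98, had the lowest Prkaa2 of its group, 10.68. The same difference for the GAPDH control went the other way at 24 h. Its group means there were 0.35 with vehicle and 0.42 with isoproterenol, while those of beta-actin were 1.69 and 1.06. At 72 h the GAPDH means were 0.36 and 0.42. The macrophage markers of the 72 h isoproterenol arrays were higher than in any vehicle array, and cardiomyocyte marker means there were 12.68 to 12.99 against 12.97 to 13.00 with vehicle. Their part in the Prkaa2 difference was not tested.

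**Figure D2:**
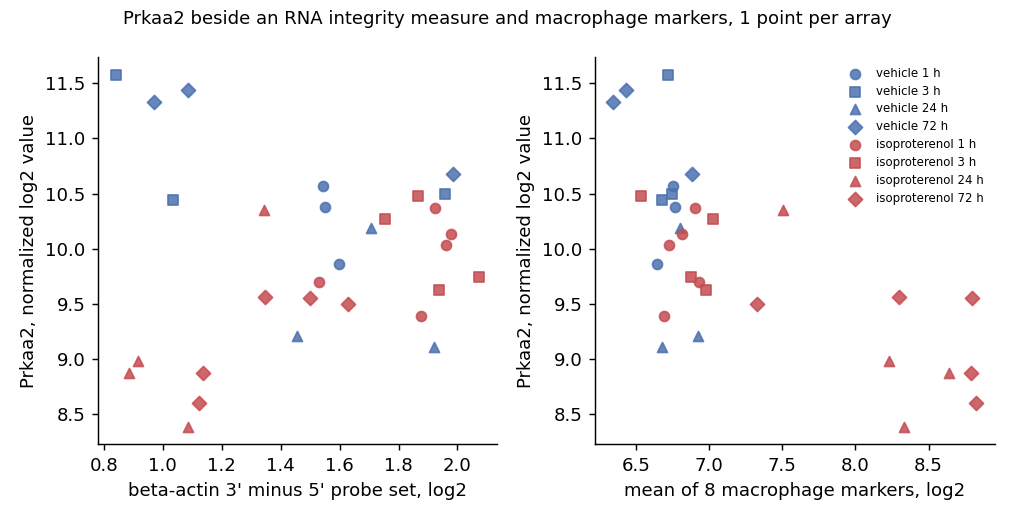
Prkaa2 level in each array against the beta-actin difference (3' less 5', log2) (left) and against the mean of 8 macrophage markers (right), with vehicle in blue, isoproterenol in red and symbols for the time. The isoproterenol arrays at 24 and 72 h lie at macrophage means of 7.33 to 8.83, and the 3 highest Prkaa2 values, 11.33 to 11.58, are vehicle arrays with beta-actin differences of 0.84 to 1.08.

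Prkaa1, the other catalytic subunit, did not share this pattern. Its brightest probe set, 1375970_at, was at 8.23, 8.87 and 8.04 with vehicle at 72 h and at 8.58, 8.55, 8.50, 8.39 and 8.63 with isoproterenol, all within the vehicle range. The change was 0.15 ± 0.15 at 72 h, -0.0049 ± 0.15 at 24 h and 0.03 ± 0.15 at 3 h. At 1 h it was 8.65, 8.46 and 8.40 with vehicle and 8.15, 8.37, 8.13, 8.24 and 8.32 with isoproterenol. All 5 isoproterenol arrays lay below the vehicle arrays there, by a change of -0.26 ± 0.15 that was not past the threshold. The probe set 1369104_at was dim, with group means of 4.74 to 5.30 around the filter value of 5.29, and 1394921_at was too dim to be tested.

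Within an array the difference between the alpha subunits takes out whatever shifts both alike. Prkaa2 minus Prkaa1 was 3.09, 1.81 and 3.39 in the vehicle arrays at 72 h and 0.92, 1.01, 0.10, 1.18 and 0.24 in the isoproterenol arrays, a change of -2.08 ± 0.43. The change was -0.08 ± 0.43 at 1 h, -0.84 ± 0.45 at 3 h and -0.35 ± 0.45 at 24 h, and the groups overlapped at these times. Prkaa2 minus the mean of the other 5 subunits changed by -1.62 ± 0.40 at 72 h, with 5 of 5 isoproterenol arrays below the lowest vehicle array, and by -0.25 ± 0.40, -0.70 ± 0.41 and -0.26 ± 0.41 at 1, 3 and 24 h. Against all 4 vehicle groups this last difference was -0.91 at 72 h and -1.29 at 24 h. Prkaa2 was singled out for this contrast, so these differences too carry no test.

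Of the beta subunits, Prkab1 was lower with isoproterenol by small amounts at every time after quantile normalization. At 24 h it was 10.03, 9.82 and 10.13 with vehicle and 9.65, 9.56, 9.72 and 9.75 with isoproterenol, with no overlap and a change of -0.32 ± 0.14. At 3 h it was 9.82, 9.77 and 9.82 with vehicle and 9.57, 9.67, 9.47 and 9.66 with isoproterenol, again with no overlap, and the change was -0.21 ± 0.14. The changes at 1 and 72 h were -0.23 ± 0.13 and -0.29 ± 0.13, with overlapping groups. None of the 4 was past the threshold. Over 12 other settings of the processing the change ran from -0.33 to 0.25 at 24 h and from -0.39 to 0.25 at 72 h. Its sign at these times thus depended on the setting.

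Prkab2 was near the limit of what the arrays could measure. Its brighter probe set, 1369271_at, had group means of 4.78 to 5.48 around the filter value of 5.29, and its changes were -0.19 ± 0.30, -0.39 ± 0.31, 0.02 ± 0.31 and -0.57 ± 0.30 at 1, 3, 24 and 72 h. At 72 h it was 5.19, 5.29 and 5.58 with vehicle and 5.21, 4.31, 4.79, 4.56 and 5.05 with isoproterenol. These ranges overlapped through 1 isoproterenol array. The dimmer probe set, 1378845_at, had changes of 0.10 ± 0.33, 0.17 ± 0.34, -0.03 ± 0.34 and -0.48 ± 0.33, with overlapping groups at every time, and neither was past the threshold. Changes this close to the background are compressed by the added 16.

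By the brightest probe set of each gene, Prkag1, the gamma1 subunit, was the member next furthest below vehicle at 72 h. It was 9.38, 9.36 and 9.41 with vehicle and 9.11, 8.68, 8.61, 8.70 and 8.70 with isoproterenol. All 5 isoproterenol arrays lay below the vehicle arrays, and replicate 1, the highest of them, was also the isoproterenol array with the lowest macrophage marker mean at 72 h, 7.33. For Prkaa2 that array (9.49) was below replicates 2 and 4 (9.55 and 9.56), whose macrophage means were 8.80 and 8.30. A link to the macrophage markers was not tested. The Prkag1 change was -0.62 ± 0.14, or 65.0% of the vehicle level. It was 0.06 ± 0.14 at 1 h, -0.33 ± 0.15 at 3 h and -0.35 ± 0.15 at 24 h. At 3 h the values were 9.54, 9.47 and 9.13 with vehicle and 9.09, 8.94, 8.94 and 9.25 with isoproterenol, and at 24 h they were 9.45, 8.97 and 9.19 against 8.52 to 9.16 over 4 isoproterenol arrays. Both of these pairs of groups overlapped. The size of the Prkag1 change at 72 h depended on the scaling, and without normalization it was -0.04.

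Prkag2, the gamma2 subunit whose mutations cause a glycogen storage cardiomyopathy, was measured by 4 probe sets that did not all run the same way. The brightest, 1373952_at, was at 8.34, 7.71 and 8.20 with vehicle at 3 h and at 8.58, 7.94, 8.57 and 8.68 with isoproterenol, so 3 of 4 isoproterenol arrays were above all vehicle arrays. Its changes were 0.13 ± 0.17, 0.36 ± 0.18, 0.15 ± 0.18 and -0.24 ± 0.17 at 1, 3, 24 and 72 h. Another probe set, 1383122_at, was 0.57 ± 0.19 higher at 3 h, and at 72 h it was 7.50, 7.52 and 7.56 with vehicle against 7.30, 6.61, 6.65, 7.21 and 7.32 with isoproterenol. Those 72 h groups did not overlap, with a change of -0.51 ± 0.18.

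The other pair of Prkag2 probe sets was dimmer. The probe set 1381728_at was also lower at 72 h in all 5 isoproterenol arrays, with a change of -0.67 ± 0.26, after changes of 0.45 ± 0.26 and 0.50 ± 0.28 at 1 and 3 h. The probe set 1392263_at was higher in all 5 at 72 h, by 0.63 ± 0.30, but at 72 h only 1 isoproterenol array and no vehicle array reached the filter intensity of 23, and its group means lay between 4.24 and 4.96. None of the 4 was past the threshold at any time. Prkag2 has 25 RefSeq transcripts, and which of them each probe set reads was not determined here.

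The difference between the gamma subunits within an array was taken with the brightest Prkag2 probe set. Prkag2 minus Prkag1 was -1.32, -1.04 and -0.84 in the vehicle arrays at 24 h and -0.52, -0.76, -0.50 and -0.50 with isoproterenol, so all 4 isoproterenol arrays were above the vehicle arrays. The change was 0.50 ± 0.18 there, 0.68 ± 0.18 at 3 h with 3 of 4 above, and 0.38 ± 0.17 at 72 h with 3 of 5 above, and the groups overlapped at 3 and 72 h. At 1 h it was 0.08 ± 0.17. At 72 h the Prkag2 probe sets 1383122_at and 1381728_at had changes of -0.51 and -0.67, beside -0.62 for Prkag1, so the gamma difference at that time rests on the probe set used. The beta pair, Prkab2 minus Prkab1, changed by 0.04 ± 0.31, -0.18 ± 0.32, 0.35 ± 0.32 and -0.28 ± 0.31.

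**Figure D3:**
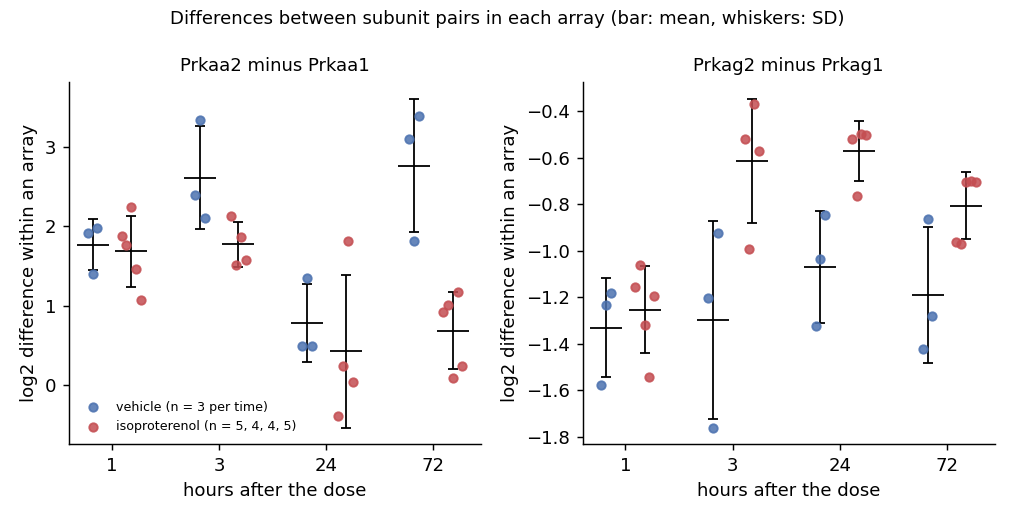
Differences between 2 subunits in each array, in log2 units, by time in hours: Prkaa2 minus Prkaa1 (left) and Prkag2, by its brightest probe set, minus Prkag1 (right), with vehicle in blue, isoproterenol in red, and black bars for group means with SD. At 72 h the alpha difference is 1.81 to 3.39 with vehicle and 0.10 to 1.18 with isoproterenol. At 24 h the gamma difference is -1.32 to -0.84 with vehicle and -0.76 to -0.50 with isoproterenol.

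Over the whole family, 2 of the 11 tested probe sets were past the threshold at 72 h, both lower, beside 8.56% of all probe sets tested. None was past it at 1, 3 or 24 h. The members were chosen with these contrasts known, so nothing is read from that count. By the brightest probe set of each gene, the 8 group means of Prkaa2 spanned 2.00 on the log2 scale. Those of the other members spanned 0.49 for Prkaa1 to 0.70 for Prkab2. In units of the standard deviation between arrays of a group this span was 4.34 for Prkaa2, 3.18 for Prkag1, 2.98 for Prkab1, 2.45 for Prkaa1, 2.38 for Prkag2 and 1.72 for Prkab2. Other probe sets could span more. Group means of the Prkag2 probe set 1381728_at ran from 5.23 to 6.29, and those of 1383122_at from 7.02 to 7.82.

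**Figure D4:**
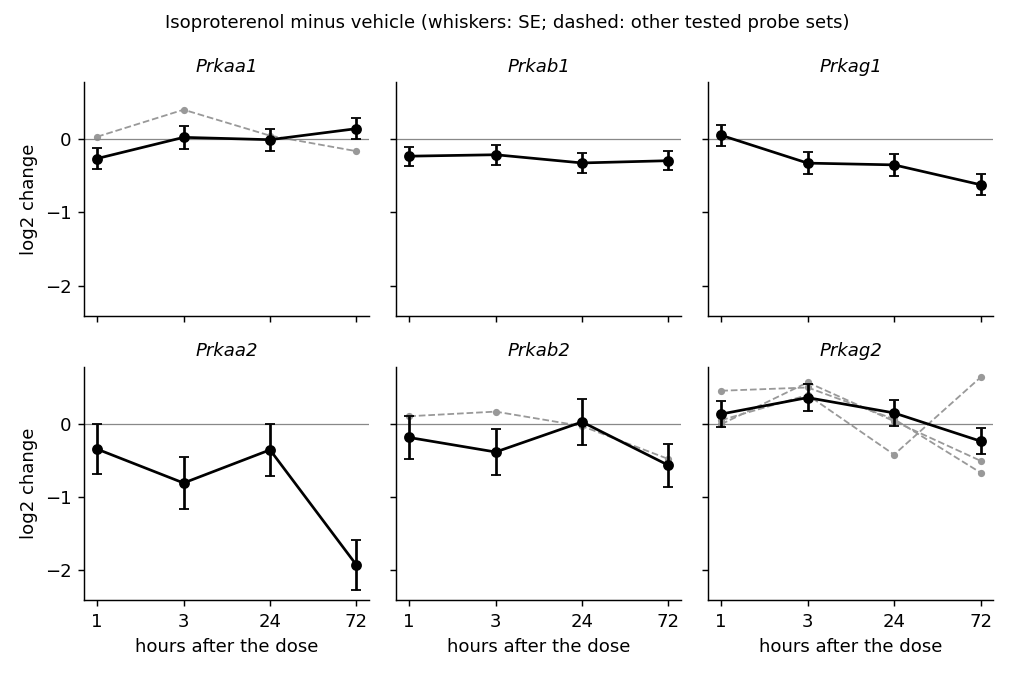
Log2 change of each subunit with isoproterenol, relative to vehicle, at 1, 3, 24 and 72 h, with standard errors. Black points are the brightest probe set of the gene and dashed gray lines its other tested probe sets. Prkaa2 reaches -1.93 at 72 h and Prkag1 -0.62, the brightest Prkaa1 probe set lies between -0.26 and 0.15, and the 4 Prkag2 probe sets part at 72 h.

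Genes whose pattern was most like that of Prkaa2 were ranked by the Pearson correlation of their normalized log2 values with Prkaa2 over all 30 arrays, which share the drug groups and the sampling times. Among 12450 other genes the highest were Trak2 (0.879), an adaptor for mitochondrial transport, Wdr37 (0.868), the forkhead factor Foxo1 (0.862), Tmem116 (0.857) and the kinase Rps6ka5 (0.857). The lowest were the calcium channel subunit Cacna2d1 (-0.843), Srp72 (-0.823), a part of the signal recognition particle, the kinase Pak2 (-0.82), Ddb1 (-0.808) and Srrt (-0.8). At 72 h the changes with isoproterenol were -0.85 for Trak2, -1.14 for Foxo1 and 0.82 for Cacna2d1. Of the subunits, Prkag1 was most like Prkaa2, at 0.634 and rank 295, followed by Prkab1 at 0.198, Prkab2 at 0.146, Prkag2 at -0.02 and Prkaa1 at -0.465. These correlations are descriptions of 30 arrays that are not independent draws of one condition.

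The genes around the kinase were taken as 4 lists, of which 59 of 66 genes were tested. At 1 h, 4 of the 59 rose and none fell, beside backgrounds of 1.83% and 0.815%. At 3 h, 7 rose and 5 fell, beside 6.11% and 5.28%. At 24 h, 3 rose and 12 fell, beside 7.33% and 5.7%. At 72 h, 5 rose and 12 fell, beside 9.37% and 8.56%. Each network gene is counted by its brightest probe set, while the backgrounds count every probe set tested, so the shares are not of like units. The same backgrounds apply to each list below. Any 1 array left out left 5 to 21 calls at 24 h, 7 to 20 at 72 h, 7 to 12 at 3 h and 2 or 3 at 1 h. Without normalization, where the median over all probe sets was 0.47 at 24 h and 0.36 at 72 h, 7 and 5 network genes were called at those times, all of them higher and none lower. With array medians centred, 4 rose and 2 fell at 24 h and 5 rose and 4 fell at 72 h. These genes are not members, and their adjusted p is limma's over all probe sets tested. The lists were chosen with earlier results of these data known, so these p-values are not independent of that choice.

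Upstream of AMPK, the genes of its 2 main activating kinases, Stk11 and Camkk2, were not called at any time. Stk11, which encodes LKB1, differed by -0.08 ± 0.22 to -0.33 ± 0.24, with adjusted p of 0.395 to 0.938. Its group means of 4.70 to 5.27 all lay below the filter value of 5.29, so the lack of a call says little. Camkk2 differed by -0.13 ± 0.23 to 0.16 ± 0.22, with adjusted p of 0.796 to 0.959. Camkk1, its paralogue, fell at 3 h by a log2 change of -0.92 ± 0.20 (adjusted p = 0.00259) and was higher at 24 h by 0.67 ± 0.20 (adjusted p = 0.0263) and at 72 h by 0.70 ± 0.20 (adjusted p = 0.0119). The later pair of calls was fragile: the 24 h call was lost on leaving out vehicle replicate 1 or 2, or isoproterenol replicate 1, 2 or 4 (up to 0.117), and the 72 h call without vehicle replicate 2 or 3 (up to 0.0614).

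Flcn encodes folliculin, which acts at the lysosome with the AMPK-binding partners Fnip1 and Fnip2. It fell at 3 h from 10.12 ± 0.06 (SD, n = 3) to 8.92 ± 0.10 (SD, n = 4), a change of -1.20 ± 0.14 (adjusted p = 3.44e-07) that kept its call with any 1 array left out. Its change was -0.57 ± 0.14 at 24 h (adjusted p = 0.00683, lost at 0.0772 without vehicle replicate 3) and -0.42 ± 0.14 at 72 h (adjusted p = 0.0302, lost on leaving out vehicle replicate 1 or 3, or isoproterenol replicate 3 or 5, up to 0.178). Of its partners, Fnip2 rose by 0.78 ± 0.21 at 3 h (adjusted p = 0.0153, lost without vehicle replicate 1 or isoproterenol replicate 2, up to 0.0761) and was not called at another time. Fnip1 fell by 0.67 on the log2 scale at 72 h (SE 0.19, adjusted p = 0.0156, lost on leaving out vehicle replicate 1 or 3, or isoproterenol replicate 2 or 3, up to 0.101). With the median of a gene's probe sets, Fnip2 at 3 h (0.55, adjusted p = 0.128) and Fnip1 at 72 h (-0.50, adjusted p = 0.106) were not called.

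A phosphatase gene and 2 of the 3 sestrin genes were called too. Ppp2ca, a catalytic subunit of the phosphatase PP2A that can dephosphorylate AMPK, rose at 3 h from 8.46 ± 0.21 (SD, n = 3) to 9.48 ± 0.12 (SD, n = 4), a change of 1.02 ± 0.14 (adjusted p = 4.2e-06). With the median of its probe sets the change was 0.46 and the call was lost (adjusted p = 0.0795). The sestrins are stress-induced regulators of AMPK and mTORC1. At 72 h Sesn3 rose by 1.03 ± 0.24 (adjusted p = 0.00297) and Sesn2 by 0.98 ± 0.29 (adjusted p = 0.0174), the latter lost without vehicle replicate 1 or isoproterenol replicate 2 or 3 (up to 0.0866). Sesn1 was called at no time, with changes of -0.71 ± 0.24 at 24 h (adjusted p = 0.051) and -0.58 ± 0.23 at 72 h (adjusted p = 0.081), and it is named here after its values were seen. Over the list of upstream kinases and regulators, with 17 genes tested, 0 rose and 0 fell at 1 h, 2 and 2 at 3 h, 1 and 1 at 24 h, and 3 and 3 at 72 h. Its median change stayed between -0.13 and -0.01 at the 4 times. The background at 72 h was 9.37% of all probe sets higher and 8.56% lower.

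Among 11 tested AMPK-related kinases, relatives of AMPK that LKB1 mostly also activates, 2 rose early. Sik1, a salt-inducible kinase whose gene is a known cAMP target, rose at 1 h from 7.47 ± 0.53 (SD, n = 3) to 9.16 ± 0.52 (SD, n = 5), a change of 1.69 ± 0.31 or 3.22-fold (adjusted p = 0.000602). At 3 h its change was 2.22 ± 0.32 or 4.64-fold (adjusted p = 9.96e-06). Nuak2 rose by 1.36 ± 0.24 at 1 h (adjusted p = 0.000306) and by 1.03 ± 0.25 at 3 h (adjusted p = 0.00484, lost at 0.0583 without vehicle replicate 1). No kinase of this list fell at 1 or 3 h. Over all probe sets, 0.815% were lower and 1.83% higher at 1 h, and 5.28% and 6.11% at 3 h. At 24 h Sik3, another salt-inducible kinase, fell by 0.50 ± 0.17 (adjusted p = 0.0466, lost on leaving out any of the 3 vehicle arrays or isoproterenol replicate 1 or 2, up to 0.172). With the median of its probe sets the Sik3 change was -0.26 (adjusted p = 0.329). Melk, a kinase of dividing cells, rose by 1.17 ± 0.30 at 24 h (adjusted p = 0.00923, lost at 0.0655 without vehicle replicate 3) and by 0.82 ± 0.29 at 72 h (adjusted p = 0.0461, lost with 6 of the 8 arrays left out in turn, all but vehicle replicate 2 and isoproterenol replicate 1, up to 0.189).

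The list of substrates and downstream genes held 20 tested genes and was the one with the most calls. At 24 h, 9 of the 20 fell and none rose, with a median change of -0.50 beside -0.02 over all probe sets tested. At 72 h, 7 fell and none rose, with a median of -0.33 beside -0.04. At 1 h 2 rose and none fell, and at 3 h 2 rose and 3 fell. The background of lower calls was 5.28%, 5.7% and 8.56% at 3, 24 and 72 h. That of higher calls was 1.83% and 6.11% at 1 and 3 h. The counts depended on the arrays and the scaling: 2 to 11 fell at 24 h and 3 to 8 at 72 h with 1 array left out. The lowest count at 24 h came without vehicle replicate 3 or isoproterenol replicate 2, and at 72 h without vehicle replicate 1. With array medians centred, 2 fell and 1 rose at 24 h, and 1 fell at 72 h. Without normalization none fell at either time and 2 rose at 24 h, with list medians of 0.08 and 0.25. With the beta-actin difference as a covariate 2 fell at 24 h. All 4 isoproterenol arrays at 24 h had smaller beta-actin differences (0.88 to 1.34) than the vehicle arrays (1.46 to 1.92).

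Called genes of this list with roles in glucose uptake, autophagy and translation went both ways. Slc2a4, the insulin-responsive glucose transporter GLUT4 that AMPK moves to the cell surface, was at 11.19 ± 0.24 (SD, n = 3) with vehicle at 72 h and 10.17 ± 0.51 (SD, n = 5) with isoproterenol. Its change was -1.01 ± 0.23 (adjusted p = 0.00232), after -0.85 ± 0.24 at 24 h (adjusted p = 0.017, lost without vehicle replicate 3 or isoproterenol replicate 2, up to 0.113, and at 0.148 with a change of -0.50 for the median of its probe sets). Tbc1d1, a regulator of glucose transporter traffic that AMPK phosphorylates, rose by 0.69 ± 0.23 at 3 h (adjusted p = 0.0461) and differed by 0.64 ± 0.23 at 24 h (adjusted p = 0.0585). Its 3 h call was lost with 5 of the 7 arrays left out in turn, all but vehicle replicate 2 and isoproterenol replicate 3 (up to 0.276), and with the median of its probe sets the change was 0.39 (adjusted p = 0.289). Ulk1, the kinase that starts autophagy and an AMPK substrate, fell at 3 times, with changes of -0.90 ± 0.24 at 3 h (adjusted p = 0.0119, lost at 0.0687 without vehicle replicate 1), -1.05 ± 0.24 at 24 h (adjusted p = 0.00344) and -1.03 ± 0.23 at 72 h (adjusted p = 0.00191). Eef2k, the elongation factor 2 kinase, fell by 0.72 on the log2 scale at 3 h (SE 0.21, adjusted p = 0.0247) and by 0.77 at 24 h (SE 0.21, adjusted p = 0.0144). Each Eef2k call was lost without any of 3 arrays, up to 0.09 at 3 h (vehicle replicate 1 or 2 or isoproterenol replicate 3) and 0.0956 at 24 h (vehicle replicate 1 or 3 or isoproterenol replicate 2). With the median of its probe sets the Eef2k change was -0.04 at 3 h (adjusted p = 0.946) and -0.18 at 24 h (adjusted p = 0.661).

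Malonyl-CoA is the metabolite through which AMPK controls fatty acid entry into mitochondria, and 4 genes that make, remove or respond to it were named by the rule. None of the 4 was called at 1 or 3 h. Acaca, the acetyl-CoA carboxylase of lipid synthesis, fell at 24 h by a log2 change of -0.54 ± 0.15 (adjusted p = 0.0168) and differed by -0.05 ± 0.15 at 72 h (adjusted p = 0.869). Acacb, the carboxylase at the mitochondrial surface, was lower at 72 h, with a change of -1.08 ± 0.37 (adjusted p = 0.0422), and differed by -0.49 ± 0.39 at 24 h (adjusted p = 0.476). The Acaca call was lost on leaving out vehicle replicate 1 or 3, or isoproterenol replicate 2 (up to 0.0856), and the Acacb call on leaving out vehicle replicate 1 or 3, or isoproterenol replicate 2, 3 or 4 (up to 0.227). With the median of its probe sets the Acaca change at 24 h was -0.21 (adjusted p = 0.558). Mlycd, which removes malonyl-CoA, fell by 0.85 ± 0.20 at 72 h (adjusted p = 0.0035) and by 0.63 ± 0.21 at 24 h (adjusted p = 0.044, lost with 6 of the 7 arrays left out in turn, all but isoproterenol replicate 3, up to 0.147). Cpt1b, the carnitine palmitoyltransferase that malonyl-CoA inhibits, fell by 0.75 ± 0.18 at 24 h (adjusted p = 0.00433), from 12.00 ± 0.23 (SD, n = 3) to 11.25 ± 0.39 (SD, n = 4). Its change of -0.49 ± 0.17 at 72 h (adjusted p = 0.0394) was lost on leaving out any of 7 of the 8 arrays, all but isoproterenol replicate 1 (up to 0.144).

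Ppargc1a, the PGC-1alpha coactivator of mitochondrial genes and a phosphorylation target of AMPK, changed direction over time. It rose by 0.94 ± 0.25 at 3 h (adjusted p = 0.011, lost at 0.0695 without vehicle replicate 2) and by 0.86 ± 0.24 at 1 h (adjusted p = 0.0394, lost without any 1 of 7 of the 8 arrays, all but isoproterenol replicate 1, up to 0.176). At 24 h it differed by -0.62 ± 0.25 (adjusted p = 0.0997), and at 72 h it fell by 0.73 ± 0.24 (adjusted p = 0.0282, lost on leaving out any of the 3 vehicle arrays or isoproterenol replicate 2 or 3, up to 0.0994). With the median of its probe sets the changes were 0.75 at 1 h and 0.70 at 3 h, both no longer called (adjusted p = 0.107 and 0.0721), and -1.25 at 72 h. Crtc2, a CREB coactivator that salt-inducible kinases and AMPK phosphorylate, rose by 0.61 ± 0.17 at 1 h (adjusted p = 0.0489). That call was lost with 7 of the 8 arrays left out in turn, all but vehicle replicate 2 (up to 0.404). For Ppargc1a, the difference between the effects at 24 and 3 h was itself tested and is given among the closing observations.

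**Figure D5:**
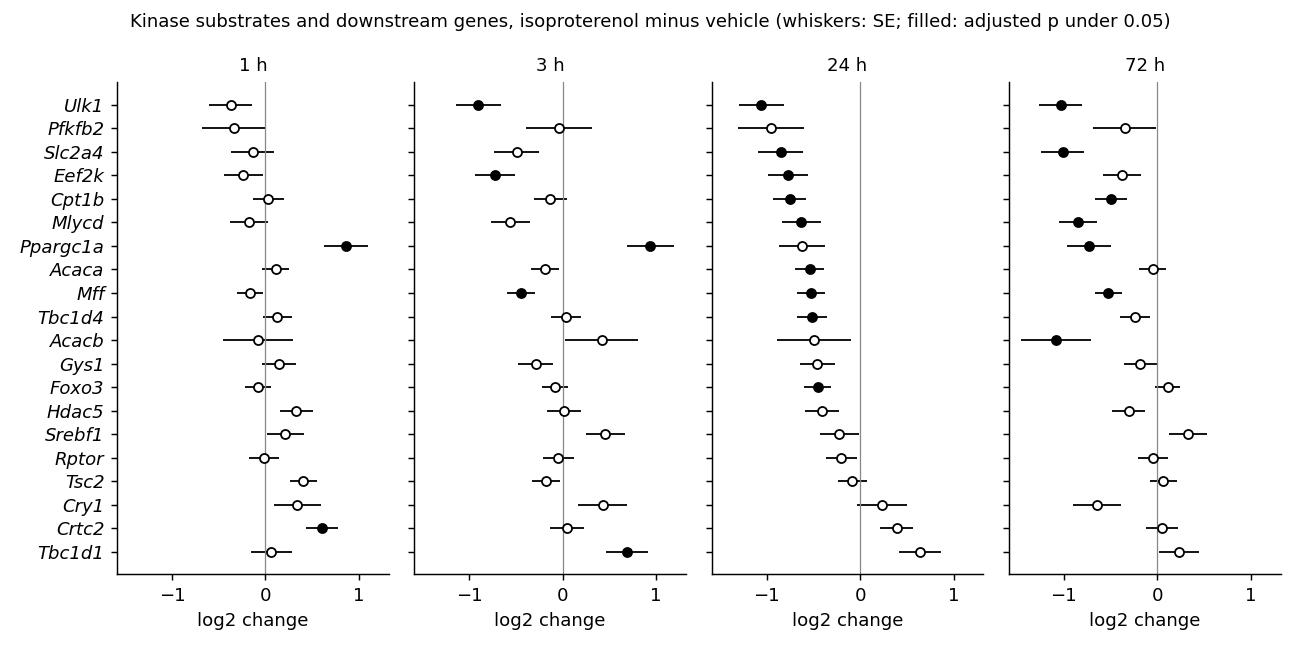
Log2 change with isoproterenol, relative to vehicle, of the 20 tested substrates and downstream genes of AMPK at 1, 3, 24 and 72 h, with standard errors, ordered by the change at 24 h. Filled points have an adjusted p under 0.05 (limma). At 24 h 9 filled points lie below 0 and none above, and at 72 h 7 lie below 0.

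Of 11 tested adenylate and phosphocreatine enzymes, which set the AMP that the gamma subunits sense, few were called. Ampd3, an AMP deaminase, rose by 0.77 ± 0.19 at 3 h (adjusted p = 0.00522). Ak4, a mitochondrial adenylate kinase family member, fell by 0.95 ± 0.23 at 24 h (adjusted p = 0.00592) and by 0.82 ± 0.22 at 72 h (adjusted p = 0.00916, lost at 0.076 without vehicle replicate 1). At 72 h Adk, adenosine kinase, fell by 0.81 ± 0.17 (adjusted p = 0.00135) and Ada, adenosine deaminase, rose by 0.88 ± 0.19 (adjusted p = 0.00169). Ada also rose by 0.71 ± 0.20 at 24 h (adjusted p = 0.0178, lost on leaving out vehicle replicate 1 or 2, or isoproterenol replicate 2 or 4, up to 0.0904). Prkag3, the gamma3 subunit of skeletal muscle, was not called at any time, with changes of -0.56 ± 0.24 to 0.06 ± 0.24 and adjusted p of 0.127 to 0.906.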

How the data were processed

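Male rat hearts were measured on 30 RAT230_2 arrays, 1 colour each, with 3 to 5 arrays per group, and that number limits the precision. The deposited table holds a linear intensity per probe set and array. The authors' summarisation and scaling of these intensity values: not given in the sources used here. Values were taken as log2(deposited intensity + 16), 57 control probe sets were left out, and arrays were quantile normalized, since their medians spanned 1.22, above a limit of 0.5. This removes shifts shared by most transcripts and compresses changes of dim ones. Probe sets reaching the 40th percentile of all values (intensity 23) in at least 3 arrays were kept, 24292 in all. limma 3.58.1 in R 4.3.3 fitted 8 group means with an intensity trend and 22 residual degrees of freedom, with Benjamini-Hochberg adjustment per contrast and a threshold of 0.05. The steps were tested on simulated data. A gene was its probe set with the highest mean. Symbols came from the platform annotation, updated through RefSeq gene records (20758 by gene number). No 2 arrays were identical, and same-group correlations lay between 0.934 and 0.984.

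The members and lists were chosen with earlier results of these data known. Named genes were all members, at most 4 called genes per network list and time by size of change, 6 genes always named (Prkag3, Stk11, Camkk2, Acaca, Acacb and Ppargc1a), and the 5 most and 5 least like Prkaa2. Cell type markers were lists for cardiomyocytes, macrophages, neutrophils, fibroblasts, endothelium, smooth muscle, skeletal muscle, adipocytes and erythroid cells. Same-numbered arrays of the 2 treatments were checked for pairing. Alternatives varied the pseudocount, filter, normalization, variance model, samples, replicate block, covariates and vehicle reference, and left out each array.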

Additional observations from a re-analysis of the deposited data

Results flagged for a closer look

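A pair of member values stood apart from their own group by Dixon's test at the 95% level, among 44 groups of member values examined, and chance marks about 1 in 20 such groups. The check took groups of at least 4 arrays, so all were isoproterenol groups and no vehicle array was examined. Prkag1 in isoproterenol replicate 1 at 72 h was at 9.11 while the other 4 arrays were between 8.61 and 8.70. That array had the lowest macrophage marker mean of its group, 7.33, but not the highest Prkaa2. Without that array the Prkag1 change at 72 h was -0.71. The brightest Prkag2 probe set in isoproterenol replicate 2 at 3 h was at 7.94 while the other 3 arrays were between 8.57 and 8.68, and without it the change at 3 h was 0.52.

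For 28 network genes, the isoproterenol effect was compared between successive times with an interaction contrast in limma, adjusted over all probe sets tested. The 28 are the network genes named by rule, most of them for a large called change at some time in these same arrays. That choice favours differences between times, so the p-values below are not independent of it. The 24 h effect on Camkk1 exceeded that at 3 h by 1.59 ± 0.29 (adjusted p = 0.000861). The effect on Ppargc1a was lower at 24 h than at 3 h, with a difference of -1.56 ± 0.35 (adjusted p = 0.00643), and that on Sik1 with a difference of -1.83 ± 0.45 (adjusted p = 0.0133). The effect on Ppp2ca was higher at 3 h than at 1 h by 0.81 ± 0.19 (adjusted p = 0.0437) and then lower at 24 h than at 3 h, with a difference of -0.86 ± 0.20 (adjusted p = 0.0081). The effect on Flcn was lower at 3 h than at 1 h, with a difference of -0.94 ± 0.20 (adjusted p = 0.0165). Over all probe sets tested, 141 differed between 1 and 3 h, 1649 between 3 and 24 h and 514 between 24 and 72 h.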

How the results depend on the processing

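Prkaa2 stayed lower at 72 h under every alternative run, with log2 changes of -2.14 to -1.44 over the 12 planned settings. The lowest came from array weights and the highest from no normalization (-1.44). Against all vehicle arrays, an alternative chosen after seeing the data, as were the covariates below and a filter on normalized values, it was -1.22. At 24 h its sign depended on the setting: 0.26 without normalization and -1.30 against all vehicle arrays. Prkaa2 minus the mean of the other subunits was -0.91 at 72 h and -1.29 at 24 h against all vehicle arrays. Leaving out 1 array moved it between -0.61 and 0.11 at 24 h.

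Subunit probe sets past the threshold numbered 1 in place of 0 at 3 h with a pseudocount of 64, with the filter applied within 1 group and with the array median as a covariate, and 2 against all vehicle arrays. At 24 h they numbered 1 with array weights and 2 against all vehicle arrays. At 72 h they numbered 1 with medians centred, 1 without normalization, 5 with array weights and 4 against all vehicle arrays. Calls over all probe sets moved as well. At 72 h these were 2275 higher and 2079 lower in the main fit, and 3467 and 3741 with array weights. They were 2353 and 709 with medians centred, 2351 and 29 without normalization, and 3066 and 3261 against all vehicle arrays. At 24 h they were 1781 and 1384 in the main fit, and 2766 and 2485 with array weights. Nothing is read from the subunit counts. With array weights 1 subunit probe set passed the F test among vehicle groups, in place of 0. The vehicle arrays also enter the changes that selected the members, so nothing is read from it. Leaving out 1 array gave 0 to 1 subunit probe sets at 3 h, 0 to 1 at 24 h and 2 to 5 at 72 h. The 5 came without isoproterenol replicate 1, where 2798 of all probe sets were higher and 2861 lower.

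Network genes called at 1 h fell from 4 to 2 with no filter, medians centred, the replicate block, the array median or the beta-actin difference as a covariate, to 1 without normalization, and rose to 8 against all vehicle arrays. At 3 h they fell from 12 to 2 without normalization and to 7 with the median of a gene's probe sets. At 24 h they went from 15 to 6 with medians centred, 7 without normalization, 7 with only the arrays compared, 9 with the median of a gene's probe sets, 5 with the array median and 2 with the beta-actin difference as covariates, 25 with array weights and 23 against all vehicle arrays. At 72 h they went from 17 to 9 with medians centred, 5 without normalization, 6 with only the arrays compared and 26 against all vehicle arrays. Leaving out 1 array gave 2 to 3, 7 to 12, 5 to 21 and 7 to 20 at the 4 times. Without normalization 4 changes turned positive: Acaca (0.087), Flcn (0.024) and Sik3 (0.13) at 24 h and Flcn (0.12) at 72 h.

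All probe sets called were 643, 2766, 3165 and 4354 at the 4 times. They were 190, 478 and 2380 at 1, 3 and 72 h without normalization, of which 29 were lower at 72 h, and at 24 h 17 were lower and 3078 higher, and 1698, 5251 and 7208 at 1, 24 and 72 h with array weights. With only the arrays compared they were 1313, 1331, 2104 and 2398. At 24 h they were 1612 with the array median and 1095 with the beta-actin difference as covariates. Against all vehicle arrays they were 1731, 4640 and 5500 at 1, 3 and 24 h. Leaving out 1 array gave 393 to 609, 1871 to 3028, 1581 to 4420 and 2421 to 5659. The cause of these moves was not tested. The vehicle F test has no value against all vehicle arrays, and the median of a gene's probe sets gives no probe set counts. Same-numbered arrays correlated at -0.07 to 0.13, so the numbers were not taken as pairs. With the replicate block, Prkaa2 changed by -1.76 at 72 h, the same 2 subunit probe sets were past the threshold, and all calls numbered 543, 2426, 2621 and 3620. Probe sets near the filter, such as those of Prkab2, have only a signal close to background.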

Other observations

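Markers of cell types other than muscle and macrophages moved with isoproterenol too, with calls by limma's adjusted p over all probe sets tested. Of 3 tested neutrophil markers, 1 rose at 1 h and 2 at 3 h, and none was called at 24 or 72 h. Their mean was 6.34 to 6.89 in the isoproterenol arrays at 3 h and 5.05 to 5.39 in the vehicle arrays. Of 8 macrophage markers, 1 rose at 1 h and 2 at 3 h. Of 6 fibroblast markers, 1 fell at 1 h and 1 fell at 24 h. Of 5 smooth muscle and pericyte markers, 2 fell at 3 h and 3 rose at 72 h. Of 3 erythroid markers, 1 fell at 3 h, 1 at 24 h and all 3 at 72 h, when the median change was -0.76. Of 4 endothelial markers, 1 fell at 24 h. Of 5 skeletal muscle markers, 1 fell at 3 h and 1 at 72 h, and of 3 adipocyte markers 1 rose at 72 h. Their part in the changes of the kinase genes was not tested.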
